A study of Rattus norvegicus with 2 samples.

Results

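The 10 genes described here, *Ryr2*, *Casq2*, *Trdn*, *Atp2a2*, *Pln*, *Sln*, *Srl*, *Hrc*, *Jph2* and *Slc8a1*, encode proteins that release, store or take up calcium in heart muscle cells. They were taken by symbol from the 25399 genes of the single-cell data, and each symbol occurred once. Cardiac cells of neonatal Sprague-Dawley rats aged 1 to 3 days, of both sexes pooled, were enriched for intrinsic cardiac adrenergic (ICA) cells on a Percoll gradient. They were then kept for 2 h with saline (CTRL) or with 1 µg/mL of the bacterial endotoxin lipopolysaccharide (LPS). Each condition gave 1 library on the 10X Genomics 3′ platform, so there are no replicates, no test was made, and a difference between conditions cannot be told apart from a difference between the preparations. According to the study's methods the tissue was cut from the ventricular apex, and the light Percoll band was kept, which holds immature cardiomyocytes and only some of the mature ones.

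At each heartbeat a small calcium entry through the cell membrane opens the ryanodine receptor (RYR2), the release channel of the sarcoplasmic reticulum, and the released calcium drives contraction. Calsequestrin (CASQ2) binds calcium inside the store, and triadin (TRDN) links it to the channel. The pump SERCA2, encoded by *Atp2a2*, returns calcium to the store and is held back by phospholamban (PLN) and sarcolipin (SLN). The exchanger encoded by *Slc8a1* carries calcium out of the cell, and junctophilin 2 (JPH2) ties the store to the cell membrane. *Atp2a2* is also spliced into a form found in most cell types, which a count summed over the gene does not separate from the heart form.

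The level of a gene is its unique molecular identifiers (UMIs) summed over the cells of a class, per 1000000 UMIs of that class (CPM). The classes are the deposited clusters, numbered 0 to 10. The clusters were built from expression, so a difference between clusters is a description. The CTRL library held 11531 cells with a median of 12479 UMIs, and the LPS library 12689 cells with a median of 9432. Cluster 3, named ICA and Cardiomyocyte by the authors, held 836 CTRL and 929 LPS cells with medians of 7526 and 5269 UMIs. The median share of mitochondrial UMIs was 17.9% and 17.3% in these cells, against 3.37% and 2.94% in cluster 0. Mitochondrial UMIs count in the total of each class. Clusters 0, 1 and 7 were named fibroblast, 4 and 5 endothelial and 6 macrophage, and the rest had no name. Of the barcodes, 194 occurred in both libraries, 1 of them in cluster 3 of both. Intervals are 95% intervals for counting error only, and where no UMI was seen the limit given in the text is that of 3 UMIs.

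The cardiomyocyte label of cluster 3 was checked on 11 marker genes, of which 10 had at least 500 UMIs there in each library. The summed level of the 11 was 15793 CPM in CTRL and 16563 CPM in LPS, against 312 and 258 CPM in cluster 0. The ventricular light chain gene *Myl2* stood apart from the others with 12 UMIs in CTRL and 9 in LPS, at 1.70 and 1.64 CPM. The 4 ICA markers, with *Dbh* among them, summed to 75.2 and 81.9 CPM in cluster 3 and to 1.66 and 1.10 CPM in cluster 0. Cluster 3 also held fibroblast marker RNA, at a summed 3809 and 3435 CPM against 11634 and 10684 CPM in cluster 0.

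Promoters of 8 of the 10 members were found in RefSeq on the build GRCr8 (*Ryr2*, *Casq2*, *Trdn*, *Atp2a2*, *Pln*, *Hrc*, *Jph2* and *Slc8a1*). The 250 bases before the start are shown for 3 of them: *Casq2* and *Pln*, whose UMIs lay mostly in cluster 3, and *Atp2a2*, whose UMIs lay mostly outside it. In *Casq2* (chr2:192214306-192214555, plus strand) the capitals mark a match to the motif of the muscle factor MEF2. In *Pln* (chr20:33172244-33172493, plus strand) they mark GATAA, the core bound by GATA factors. In *Atp2a2* (chr12:39733269-39733518, plus strand) they mark each CG pair.
Casq2: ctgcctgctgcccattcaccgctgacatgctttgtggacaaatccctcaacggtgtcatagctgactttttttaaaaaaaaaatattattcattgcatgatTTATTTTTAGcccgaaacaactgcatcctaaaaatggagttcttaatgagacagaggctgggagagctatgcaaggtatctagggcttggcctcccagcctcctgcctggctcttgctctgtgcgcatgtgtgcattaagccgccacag
Pln: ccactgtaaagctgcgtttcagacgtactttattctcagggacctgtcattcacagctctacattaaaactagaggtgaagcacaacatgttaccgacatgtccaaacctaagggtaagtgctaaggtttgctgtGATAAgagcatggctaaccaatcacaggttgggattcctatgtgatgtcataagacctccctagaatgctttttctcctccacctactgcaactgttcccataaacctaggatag
Atp2a2: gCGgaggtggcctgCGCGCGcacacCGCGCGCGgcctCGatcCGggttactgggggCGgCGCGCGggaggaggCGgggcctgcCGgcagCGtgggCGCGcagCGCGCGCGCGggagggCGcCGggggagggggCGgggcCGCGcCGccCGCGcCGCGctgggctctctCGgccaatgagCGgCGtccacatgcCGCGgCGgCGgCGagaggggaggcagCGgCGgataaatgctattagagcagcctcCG

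The *Atp2a2* stretch held 45 CG pairs and was 80.0% G or C, and 99.6% of the 33469 promoters of the same length had fewer CG pairs. The median over all promoters was 5 pairs and 51.2% G or C. *Casq2* held 5 pairs, *Pln* 3, and *Trdn* and *Hrc* 0. *Ryr2* held 23 pairs, more than 87.7% of promoters, and its UMIs too lay mostly in cluster 3, so the number of CG pairs did not order the members by where they were seen. Both strands were searched for 4 motifs. A MEF2 match lay 149 to 140 bases before the start of *Casq2* and in none of the other 7 members, and 2.96% of all promoters held one. GATAA was found in *Atp2a2*, *Pln* and *Hrc*, and in 23.5% of promoters. CATTCC, the core bound by TEAD factors, was found in no member and in 12.1% of promoters. CANNTG, the E-box, was found in *Ryr2*, *Casq2*, *Atp2a2*, *Pln* and *Slc8a1*, and in 65.5% of promoters. A match is a run of letters and does not show that a factor binds there.

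Cluster 3 held most of the members' UMIs in both libraries. Of 47970 member UMIs in CTRL, 27366 (57.0%, 56.6 to 57.5) were in cluster 3, and of 37620 in LPS, 20998 (55.8%, 55.3 to 56.3). The cluster held 4.64% and 4.30% of all UMIs and 7.25% and 7.32% of all cells. Most of the member UMIs outside it were of *Atp2a2*, of whose UMIs 41.4% in CTRL and 38.3% in LPS lay in cluster 3. For *Casq2* the shares were 81.3% and 83.1%, for *Trdn* 82.3% and 84.8%, and for *Ryr2* 79.2% and 85.3%. For *Pln* they were 70.7% and 74.8%, for *Srl* 68.5% and 74.1%, and for *Hrc* 60.0% and 63.6%.

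**Figure D1:**
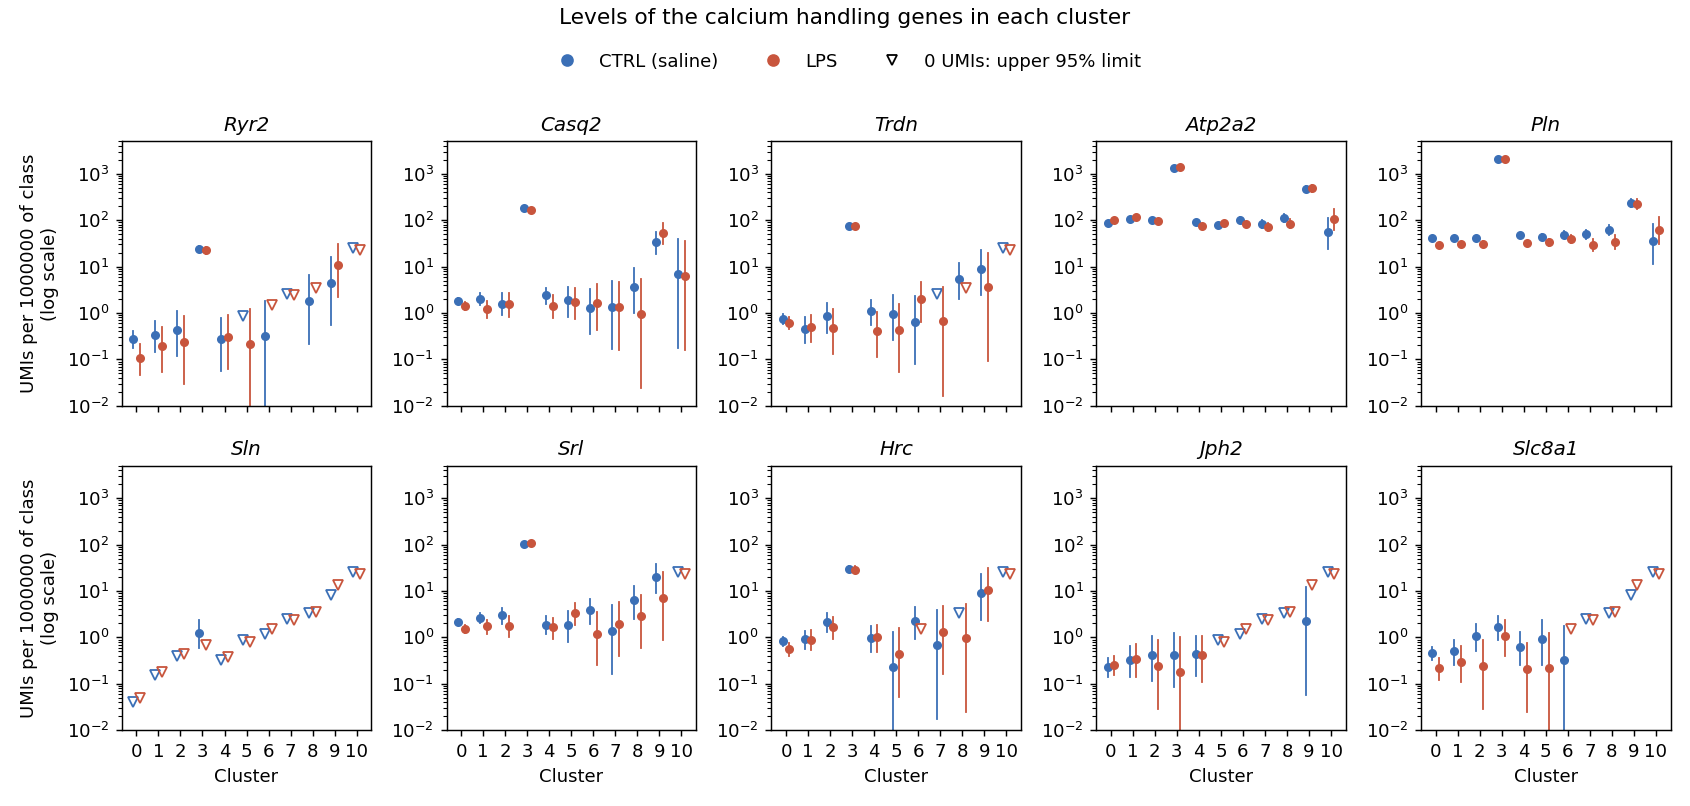
Level of each of the 10 genes (CPM, log axis) in clusters 0 to 10 of the CTRL (blue) and LPS (red) libraries, with 95% counting intervals. Where no UMI was seen, open triangles give the upper end of the 95% interval, so they rise as a cluster gets smaller. This limit is somewhat higher than that of 3 UMIs used in the text. The panels of 7 genes peak in cluster 3, with *Atp2a2* at 1329 and 1381 CPM there, while *Jph2* shows no such peak. *Slc8a1* has its highest level there too, from only 12 and 6 UMIs, and *Sln* was seen in CTRL cells of cluster 3 alone.

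Among the genes of the release complex, *Ryr2* was at 24.2 CPM (20.7 to 28.1, from 171 UMIs) in CTRL cells of cluster 3 and at 22.3 CPM (18.5 to 26.6, 122 UMIs) in LPS cells. In cluster 0 it was at 0.276 and 0.108 CPM, from 25 and 8 UMIs. *Casq2* was at 179 CPM (170 to 190) in CTRL and 170 CPM (159 to 181) in LPS, against 1.85 and 1.45 CPM in cluster 0. *Trdn* was at 74.9 CPM (68.6 to 81.5) and 73.2 CPM (66.2 to 80.7), against 0.740 and 0.610 CPM in cluster 0. These 3 genes were thus seen in cluster 3 at levels that the intervals of cluster 0 did not approach, in both libraries.

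Among the genes of calcium uptake, *Atp2a2* was at 1329 CPM (1303 to 1357, 9411 UMIs) in CTRL cells of cluster 3 and 1381 CPM (1350 to 1412, 7569 UMIs) in LPS cells. Its inhibitor *Pln* was at 2119 CPM (2086 to 2154, 15003 UMIs) and 2049 CPM (2011 to 2087, 11230 UMIs). These 2 genes carried most of the member UMIs, and their levels are not ranked against each other because 3′ tags per gene also depend on the transcript end.

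*Sln*, the regulator of the pump that is typical of atrial muscle, was almost absent. It gave 9 UMIs in 4 CTRL cells of cluster 3 (1.27 CPM, 0.581 to 2.41), and none in the 929 LPS cells, where 3 UMIs would have been 0.547 CPM. No other cluster held a *Sln* UMI. The cell with 4 *Sln* UMIs had 84 UMIs of the atrial light chain gene *Myl7*, 36 of *Myl4* and none of the ventricular light chain gene *Myl3*. The cell with 3 had 7, 3 and 0. The other 2 cells, with 1 *Sln* UMI each, had 1 and 0 *Myl7* UMIs and 9 and 2 *Myl3* UMIs. *Nppa*, also taken as an atrial marker, did not follow *Myl7*. It gave 1 UMI in the cell with 4 *Sln* UMIs, 1 in the cell with 3, and 0 and 14 in the other 2. Across cluster 3, *Myl7* was at 265 CPM in CTRL and 259 CPM in LPS, and *Myl3* at 1800 and 1835 CPM.

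Of the other proteins of the store, *Srl*, which encodes the calcium-binding sarcalumenin, was at 105.5 CPM (98.1 to 113) in CTRL and 105.8 CPM (97.4 to 115) in LPS cells of cluster 3. In cluster 0 it was at 2.12 and 1.505 CPM. *Hrc*, the histidine-rich calcium-binding protein, was at 29.7 CPM (25.8 to 34.0) and 29.0 CPM (24.7 to 33.9), against 0.818 and 0.556 CPM in cluster 0. Both followed the release genes in being seen mainly in cluster 3.

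The 2 members of the junction and the cell membrane did not have most of their UMIs in cluster 3. *Jph2* gave 3 UMIs in CTRL and 1 in LPS cells of cluster 3 (0.424 and 0.182 CPM), against 0.232 and 0.258 CPM in cluster 0, with overlapping intervals. *Slc8a1* was at 1.70 CPM (0.876 to 2.96, 12 UMIs) in CTRL and 1.09 CPM (0.402 to 2.38, 6 UMIs) in LPS. In cluster 0 it was at 0.464 CPM (0.334 to 0.627) and 0.217 CPM (0.124 to 0.352), so the level in cluster 3 was above that of cluster 0 in both libraries but rested on few UMIs. With *Sln* and the marker *Myl2*, these were genes of heart muscle that the libraries hardly captured, and the reason was not tested.

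Of the 10 members, 7 were at least 10-fold higher in cluster 3 than in cluster 0 in each library, *Slc8a1* had the minimum of 50 UMIs over both clusters in CTRL only and was not past 10-fold there, and *Sln* and *Jph2* were under the minimum in each library. Among all genes with at least 50 UMIs over both clusters, 2.55% of 11790 were that much higher in CTRL and 3.04% of 10949 in LPS. A gene can reach this minimum through cluster 3 alone, so the members' count is a description and no support for their pattern.

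Cells were compared at equal depth by drawing 3000 UMIs from each, which left out 79 LPS cells, 3 of them in cluster 3. A *Pln* UMI was then present in 98.7% (97.7 to 99.3) of CTRL and 98.4% (97.3 to 99.1) of LPS cells of cluster 3, and an *Atp2a2* UMI in 95.3% and 95.2%. *Casq2* was seen in 41.9% (38.5 to 45.3) and 40.5% (37.3 to 43.7), *Srl* in 27.4% and 29.3%, and *Trdn* in 21.7% and 19.98%. *Hrc* was seen in 8.97% and 9.72%, and *Ryr2* in 6.94% and 7.02%. Without the drawing *Casq2* was seen in 72.6% of CTRL and 58.8% of LPS cells, a gap that goes with the greater depth of the CTRL cells. In the fibroblasts of cluster 0, which should lack the muscle genes *Casq2* and *Pln*, a *Casq2* UMI was seen in 0.530% and 0.456% of thinned cells and a *Pln* UMI in 11.9% and 8.94%. *Atp2a2*, for which fibroblasts are no such class, was seen there in 21.8% and 24.1%. The median depths before thinning were 12968 and 9822 UMIs in cluster 0.

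At that depth 67.3% of CTRL and 66.4% of LPS cells of cluster 3 held a UMI of at least 3 of the 10 members, and 1 cell in each library held none. In cluster 0 it was 0.0606% and 0.0427%. *Pln* and *Atp2a2* were thus found in nearly every cell of cluster 3, while each of the other members was seen in at most 41.9% of them.

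**Figure D2:**
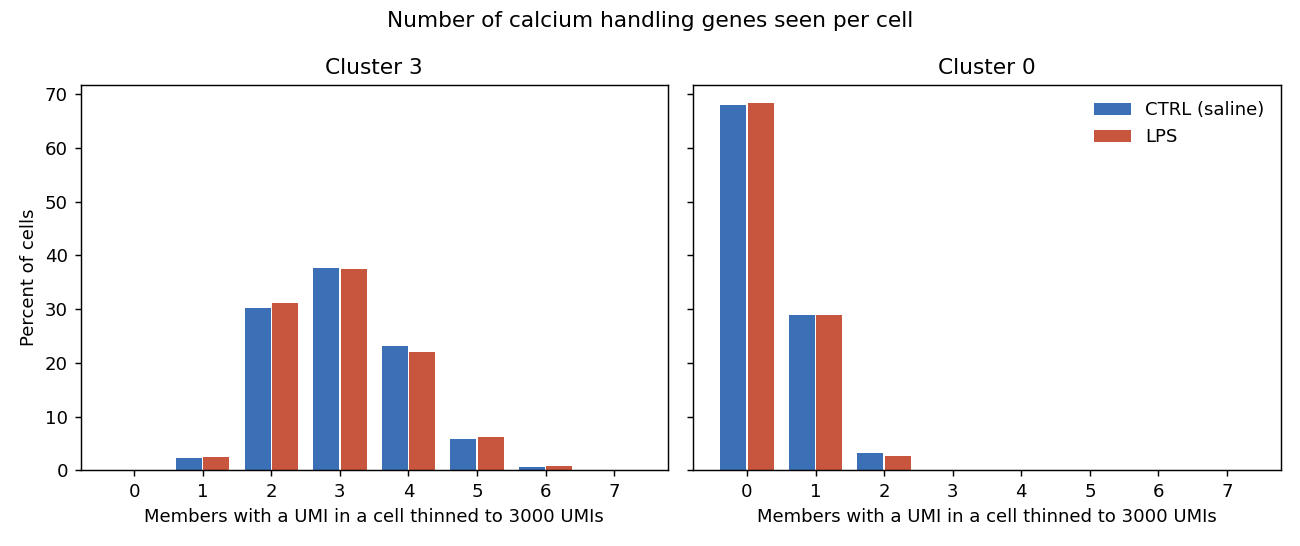
Percent of cells (bars from 0) by the number of the 10 genes with a UMI, in cells thinned to 3000 UMIs, for clusters 3 and 0 of CTRL (blue) and LPS (red). In cluster 3 the most frequent number was 3, in 37.7% and 37.5% of the cells, whereas 67.9% and 68.3% of the cells of cluster 0 had none.

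Droplets can take up free RNA, and its part in the levels outside cluster 3 was not tested. Each level there was set against the level in cluster 3, beside the same percentage for the 10 cardiomyocyte markers. The markers did not keep to 1 percentage: in CTRL they ran from 1.36% (*Myh7*) to 4.62% (*Tnnt2*) in cluster 2 and from 1.81% to 4.12% in cluster 8. In CTRL cells of cluster 0 the markers lay between 1.42% and 2.34% of their level in cluster 3, and in LPS cells between 1.10% and 1.86%. *Pln* was at 1.94% (1.87 to 2.01) and 1.45% (1.38 to 1.51), and *Srl* at 2.01% and 1.42%, inside those ranges. Over clusters 0 to 8 other than 3, which with 2 libraries make 16 classes, *Pln* was inside the range of the markers in 16 of 16. *Srl* was inside it in 10, above it in 5 and under it in 1, with no whole interval outside.

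*Atp2a2* was above the markers in all 16 of these classes. It stood at 6.44% (6.25 to 6.64) of its cluster 3 level in CTRL cells of cluster 0 and at 7.20% (6.97 to 7.44) in LPS cells. Over the 16 classes it ran from 5.19% to 8.44%, and its whole interval was above the highest marker in 16 of 16. In CTRL it was at 85.7 CPM in the fibroblasts of cluster 0, 90.0 CPM in the endothelial cells of cluster 4 and 103 CPM in the macrophages of cluster 6. In LPS the levels were 99.5, 76.6 and 81.7 CPM. Among the cells of cluster 0 without a UMI of the cardiomyocyte marker *Tnnt2* (2093 CTRL and 3171 LPS cells) *Atp2a2* was at 80.4 and 97.0 CPM, and *Pln* at 41.3 and 29.6 CPM. *Pln* was at 41.2 and 29.6 CPM over all cells of cluster 0. A cell without a *Tnnt2* UMI can still hold free RNA of other genes, so this choice of cells cannot decide where the UMIs came from. The origin of the *Atp2a2* and *Pln* UMIs there was not tested.

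The release genes were mostly under the marker range, with few UMIs behind most classes. A class with 0 UMIs counted as under the range, so in small clusters these counts say little. *Casq2* was at 1.03% (0.870 to 1.21) of its cluster 3 level in CTRL cells of cluster 0 and 0.855% (0.693 to 1.05) in LPS cells. It was under the lowest marker in 14 of the 16 classes, with the whole interval under it in 4. *Trdn* was at 0.989% and 0.834% in cluster 0. It was under the lowest marker in 13 of 16 classes, with the whole interval under it in 2. It was above the highest in 2, reaching 7.21% from 6 UMIs. *Ryr2* was at 1.14% and 0.487% in cluster 0. It was under the lowest marker in 11 classes, with the whole interval under it in 1, inside the range in 4 and above it in 1, at 7.45% from 2 UMIs. *Hrc* was at 2.76% and 1.92% in cluster 0. It was above the highest marker in 11 of the 16 classes and under the lowest in 3. Its whole interval was above the range in 1 class, CTRL cells of cluster 6, at 7.58% from 7 UMIs. In LPS cells of cluster 6 no *Hrc* UMI was seen. In cluster 2 *Hrc* reached 7.20% (4.31 to 11.4) in CTRL and 5.75% (3.07 to 9.93) in LPS, from 20 and 14 UMIs. *Tnnt2*, the highest marker there, was at 4.62% and 3.96% and set the top of the range. Without *Tnnt2* the highest marker of cluster 2 was at 2.57% and 2.03%, and the whole *Hrc* interval was above it in both libraries.

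Cluster 9, 66 CTRL and 58 LPS cells, stood between. The markers were there at 10.1% to 36.0% of their cluster 3 level in CTRL and 9.80% to 35.2% in LPS. *Atp2a2* was at 35.9% (31.2 to 41.1) and 34.96% (29.3 to 41.4), *Casq2* at 18.6% (10.4 to 30.8) and 31.6% (17.6 to 52.4), and *Pln* at 10.9% (8.90 to 13.2) and 10.995% (8.44 to 14.1). Fibroblast markers were also high in this cluster, at a summed 17272 and 14504 CPM, and the part of mixed droplets in its levels was not tested.

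**Figure D3:**
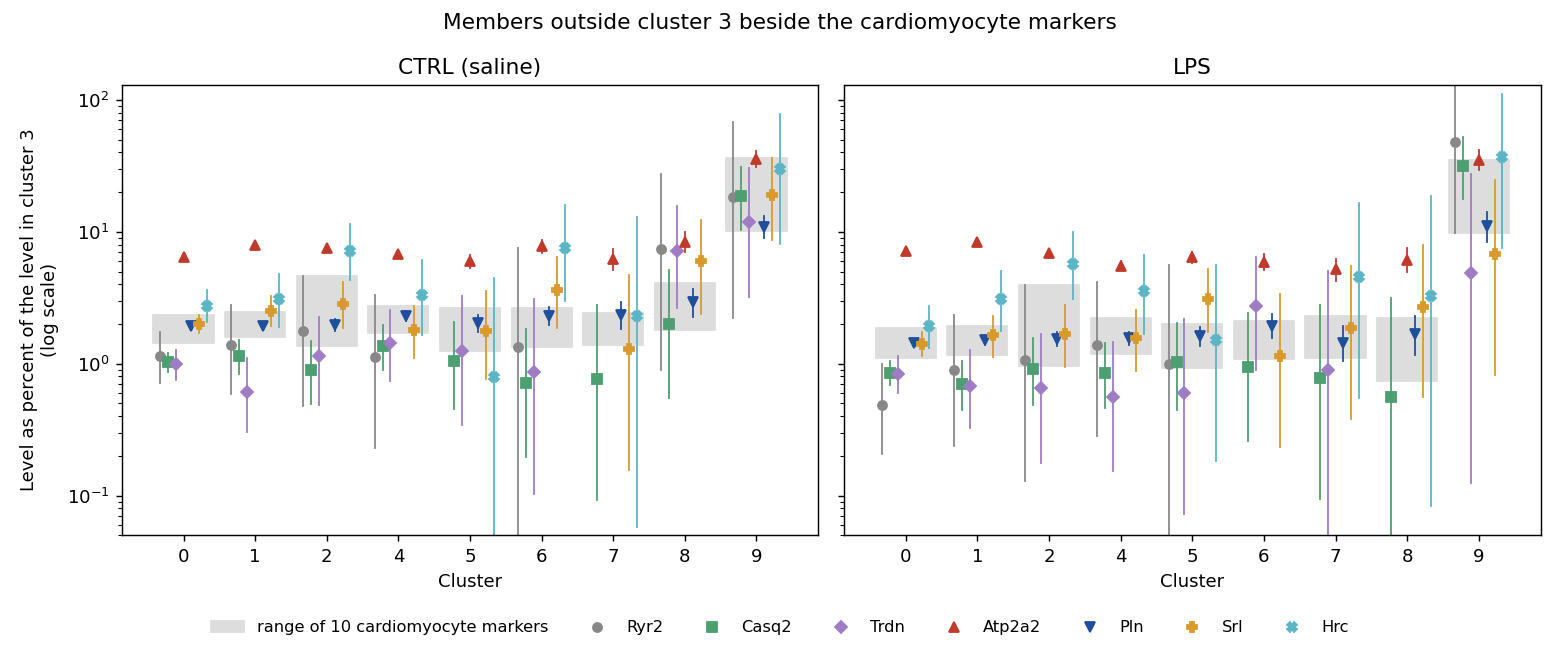
Level of 7 members in the other clusters as percent of their level in cluster 3 (log axis), in CTRL (left) and LPS (right), with 95% counting intervals; grey boxes span the 10 cardiomyocyte markers, and genes with no UMI are not drawn. *Atp2a2* (red triangles) is above the box in clusters 0 to 8, at 5.19% to 8.44%, while *Pln* (blue triangles) is inside it.

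The contrast of LPS with CTRL asks how the cells respond to endotoxin. In cluster 3 the members hardly differed. *Atp2a2* had an LPS to CTRL ratio of 1.04 (1.01 to 1.07) and *Pln* one of 0.967 (0.943 to 0.991). Both intervals exclude 1, but they cover counting alone, and the ratio of *Atp2a2* was below 1 when the cardiomyocyte markers served as denominator. The interval of *Pln* included 1 among cells thinned to 3000 UMIs. With UMIs outside the mitochondrial genes as denominator, the interval of *Atp2a2* included 1 too. The ratio was 0.921 (0.724 to 1.17) for *Ryr2*, 0.946 (0.868 to 1.03) for *Casq2* and 0.977 (0.856 to 1.11) for *Trdn*. It was 0.978 (0.791 to 1.21) for *Hrc*, and for *Srl* the interval ran from 0.898 to 1.12. Of the 7 members with at least 50 UMIs, 0 were 2-fold higher, against 1.7% of 8465 genes, and 0 were 2-fold lower, against 1.69%. Their median log2 ratio was -0.03, against -0.0053 for all 8465 genes and 0.04 for the 10 markers. *Sln*, *Jph2* and *Slc8a1* had too few UMIs for a ratio to be read.

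Outside cluster 3 the members parted. In cluster 0 *Pln* had a ratio of 0.720 (0.682 to 0.759), and the 10 cardiomyocyte markers had ratios between 0.761 and 0.898, above that interval. *Casq2* was at 0.786 (0.611 to 1.01), *Trdn* at 0.824 (0.552 to 1.22), *Srl* at 0.709 (0.556 to 0.901) and *Hrc* at 0.680 (0.452 to 1.01), near the markers. *Atp2a2* had a ratio of 1.16 (1.12 to 1.20) there. The median log2 ratio of all 12247 genes in cluster 0 was -0.13, and relative to it *Atp2a2* was 0.35 higher and *Pln* 0.34 lower on the log2 scale. Of the 7 members with at least 50 UMIs in cluster 0, 1 was 2-fold lower, against 9.1% of genes, and 0 were 2-fold higher, against 3.44%. That one was *Slc8a1*, which went from 42 to 16 UMIs with a ratio of 0.467 (0.245 to 0.849).

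The same parting was seen in cluster 1, where *Atp2a2* was at 1.11 (1.05 to 1.18) and *Pln* at 0.766 (0.691 to 0.847). *Pln* was below 1 in each of clusters 0 to 8, from 0.552 in cluster 8 to 0.967 in cluster 3, and its interval included 1 in cluster 6 alone. The cardiomyocyte markers were mostly lower outside cluster 3 too. Their median log2 ratio was -0.33 in cluster 1, -0.32 in cluster 2, -0.45 in cluster 4 and -0.65 in cluster 8. In clusters 5, 6 and 7 it was -0.27, -0.22 and -0.20, against 0.04 in cluster 3. The log2 ratio of *Pln* was below this marker median in each of clusters 0 to 8. It was -0.39 in cluster 1, -0.41 in cluster 2, -0.60 in cluster 4 and -0.86 in cluster 8. In clusters 5, 6 and 7 the *Pln* value was -0.37, -0.29 and -0.74. Whether *Pln* and the markers share an origin outside cluster 3 was not tested. Relative to the median of all genes *Pln* was lower in each of these clusters except cluster 6, where it was 0.014 above that median on the log2 scale. *Atp2a2* was at 0.852 (0.774 to 0.937) in the endothelial cluster 4 and 0.792 (0.661 to 0.948) in the macrophages of cluster 6. Its intervals in clusters 2, 5, 7 and 8 included 1, with ratios of 0.955, 1.12, 0.865 and 0.760. The median of all genes in cluster 6 was also low, at -0.31 on the log2 scale, and relative to it *Atp2a2* differed by -0.03. In cluster 4 the median was -0.09 and *Atp2a2* remained 0.14 below it.

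**Figure D4:**
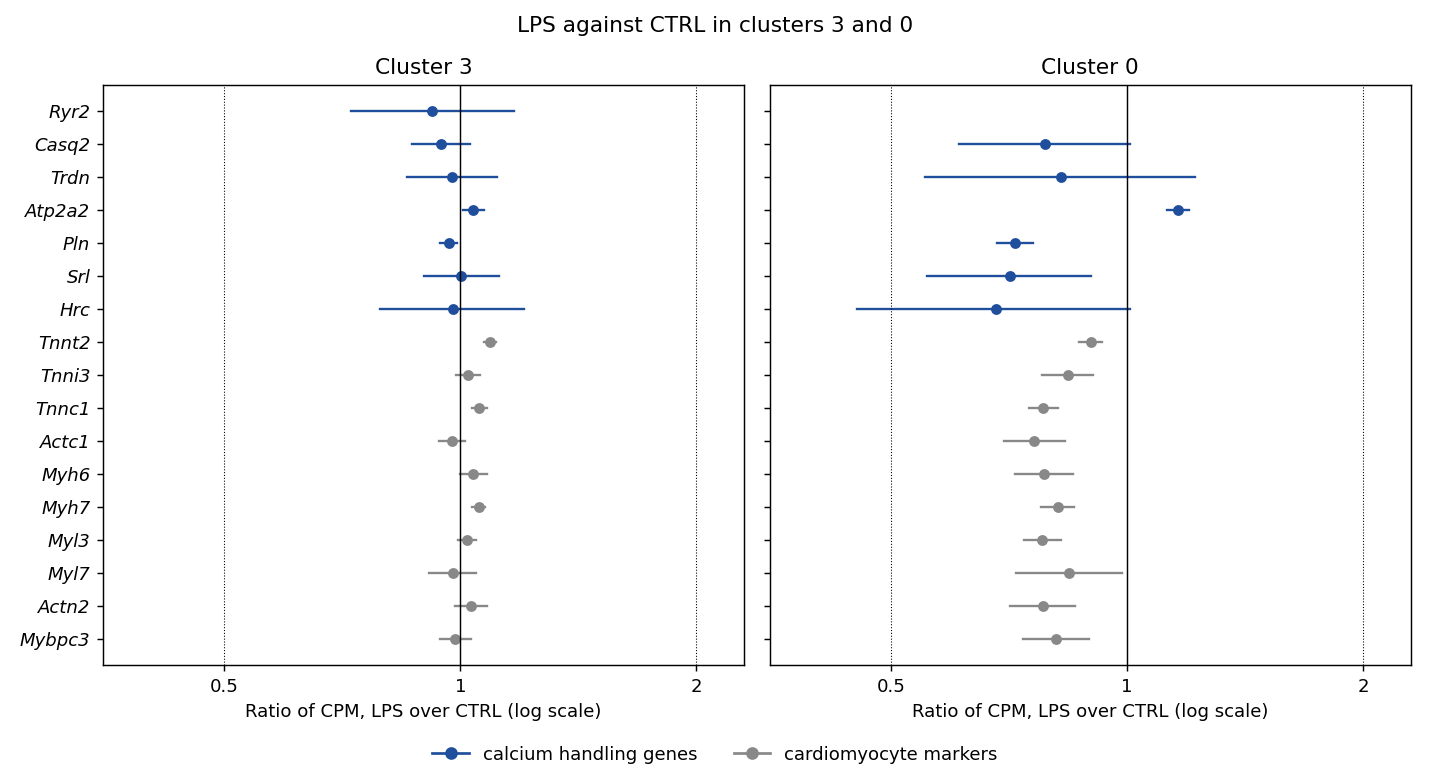
Ratio of LPS to CTRL level (log axis, 95% counting intervals) for 7 members (blue) and 10 cardiomyocyte markers (grey) in clusters 3 and 0. Dotted lines mark 2-fold, and *Ryr2* is left out of cluster 0, where it had under 50 UMIs. *Slc8a1*, at 0.467 in cluster 0, is not drawn. In cluster 3 the members lie between 0.921 and 1.04, whereas in cluster 0 *Atp2a2* is at 1.16 and the markers at 0.761 to 0.898.

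The members varied among the cells of cluster 3, which were thinned to 3000 UMIs and divided in several ways. Cells in the upper tercile of cardiomyocyte marker share, taken from the UMIs left over by the drawing, had 2.45 (1.25 to 5.09) and 2.50 (1.31 to 5.03) times the *Ryr2* level of the lower tercile in CTRL and LPS. These *Ryr2* ratios rest on few UMIs, 32 against 13 in CTRL and 35 against 14 in LPS. The ratios were 2.51 and 2.33 for *Srl*, 1.94 and 2.04 for *Casq2*, 1.79 and 1.73 for *Atp2a2*, and 1.41 (1.32 to 1.502) and 1.65 (1.54 to 1.76) for *Pln*. *Hrc* was at 1.84 and 2.37, and *Trdn* at 1.26 (0.897 to 1.77) and 1.74 (1.22 to 2.48). The drawn UMIs of the markers themselves were at 2.34 and 2.13, and those of the fibroblast markers at 0.509 and 0.330. All 7 members were thus higher where the sarcomere genes were, although for *Trdn* in CTRL the interval included 1.

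Between terciles of mitochondrial share the members differed from each other. *Atp2a2* was 1.42 (1.31 to 1.54) and 1.51 (1.39 to 1.63) times higher in the upper tercile, and *Srl* 1.89 (1.40 to 2.57) and 1.55 (1.17 to 2.07). The intervals of *Ryr2*, *Casq2*, *Trdn* and *Hrc* included 1 in both libraries. *Pln* was at 1.05 (0.985 to 1.12) and 1.23 (1.15 to 1.31). The cardiomyocyte markers were at 1.14 and 1.26 and the fibroblast markers at 0.548 and 0.334 between the same cells.

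Cells of cluster 3 with at least 2 UMIs of the cell cycle markers were few, 15 in CTRL and 19 in LPS. *Pln* was at 0.485 (0.359 to 0.642) and 0.509 (0.392 to 0.651) times the level of the other cells there, and *Atp2a2* at 0.707 (0.515 to 0.948) and 0.808 (0.628 to 1.03). The cardiomyocyte markers were also lower, at 0.768 and 0.643, and the fibroblast markers higher, at 1.65 and 2.40. The other members had at most 9 UMIs in these cells and no common direction. *Casq2* was at 0.676 and 0.829, *Trdn* at 1.59 and 1.10, *Hrc* at 0.659 and 2.51, and *Srl* at 1.18 and 0.137. Their intervals included 1, except that of *Srl* in LPS, which rests on 1 UMI. *Ryr2* had 0 and 1 UMIs there. The part of other cells' RNA in the *Pln* difference was not tested.

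Thinned cells of cluster 3 with a UMI of *Dbh*, the enzyme that makes noradrenaline and the marker of ICA cells, numbered 53 in CTRL and 76 in LPS. They had 0.497 (0.282 to 0.815) and 0.675 (0.451 to 0.976) times the *Casq2* level of the cells without one. *Trdn* was at 0.504 (0.2003 to 1.06) and 0.639 (0.325 to 1.14). *Pln* was at 1.05 (0.939 to 1.16) and 0.972 (0.884 to 1.07), and *Atp2a2* at 1.08 (0.942 to 1.23) and 1.12 (1.004 to 1.24). *Hrc* was at 1.77 (0.780 to 3.55) and 1.67 (0.856 to 3.01), *Ryr2* at 1.04 (0.273 to 2.80) and 1.93 (0.879 to 3.81), and *Srl* at 1.06 (0.628 to 1.69) and 1.13 (0.759 to 1.63). The cardiomyocyte markers were at 1.05 and 0.934 and the fibroblast markers at 0.944 and 0.979 between the same cells. Cells with a drawn *Dbh* UMI thus held cardiomyocyte marker RNA at a level near that of the other cells. The division rests on few UMIs, 56 in the 53 CTRL cells and 82 in the 76 LPS cells. Cells whose *Dbh* UMI was not drawn counted as cells without one. The 2 groups are therefore not ICA cells and cardiomyocytes, and the ICA subcluster that the paper describes was not used here. When a *Dbh* UMI before thinning was counted, in 156 CTRL and 121 LPS cells, *Casq2* was at 0.664 (0.503 to 0.863) and 0.791 (0.589 to 1.05). The lower *Casq2* was therefore seen in both libraries, with an interval that reached past 1 in LPS by the second division.

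**Figure D5:**
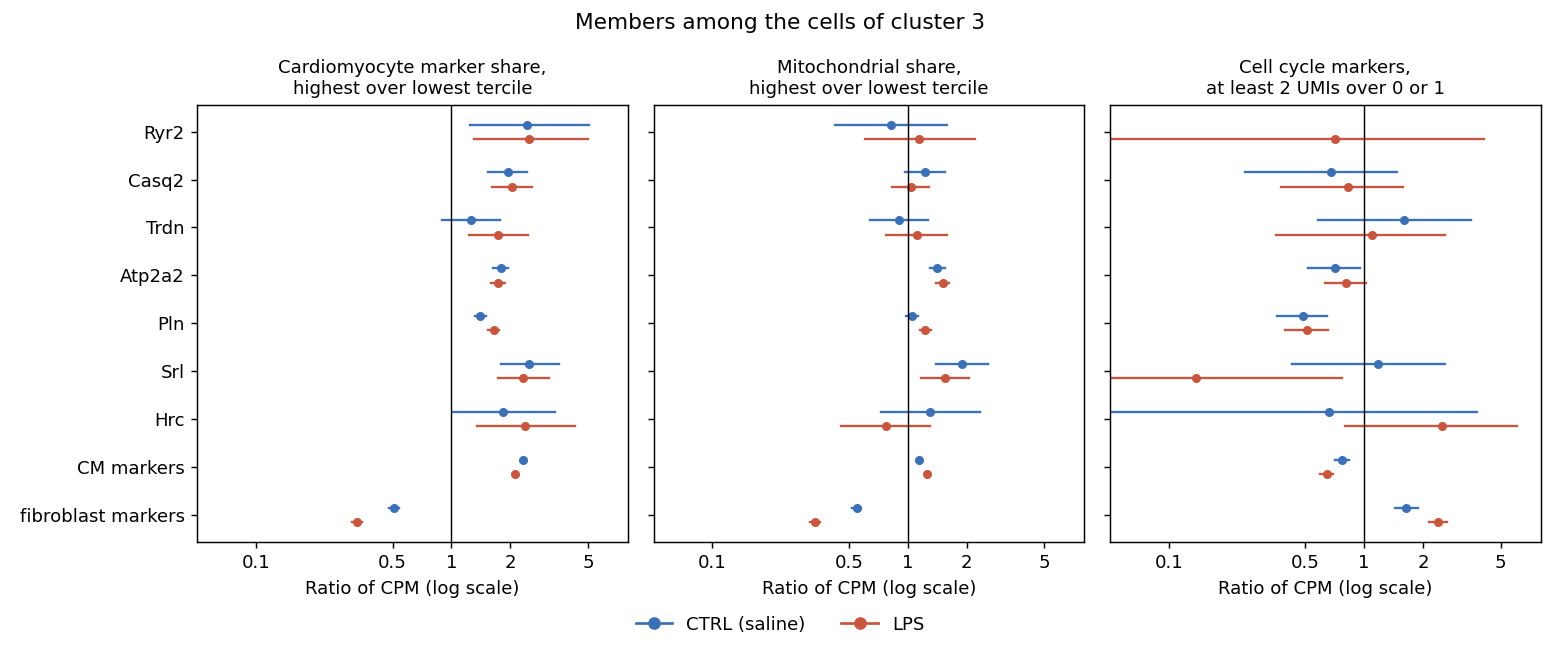
Ratio of level (log axis, 95% counting intervals) between cells of cluster 3 divided by cardiomyocyte (CM) marker share, by mitochondrial share and by cell cycle markers, in CTRL (blue) and LPS (red); members with no UMI in one division are not drawn. With a higher marker share all 7 members are higher (1.26 to 2.51), while with cell cycle markers *Pln* is at 0.485 and 0.509.

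Of 55 other genes of calcium handling, 52 were in the gene list. In cluster 3, 35 of them had at least 50 UMIs, and 0 were 2-fold higher or lower with LPS, against 1.7% and 1.69% of genes. Their median log2 ratio was -0.07. With the same minimum over clusters 3 and 0, 6 of 40 were at least 10-fold higher in cluster 3 in CTRL and 6 of 38 in LPS, beside the 2.55% and 3.04% of all genes. These genes too can reach the minimum through cluster 3 alone, and the list was chosen with earlier results known. The counts are therefore a description. The highest ratios in CTRL were those of *Ppp1r3a*, a glycogen-targeting subunit of protein phosphatase (24.3 CPM in cluster 3, a ratio of 70.9), *Casq1*, the calsequestrin of skeletal muscle (13.7 CPM, 37.6) and *Akap6*, an anchor of protein kinase A (7.49 CPM, 33.9). The T-type channel genes *Cacna1g* and *Cacna1h* followed at 10.5 each, then *Tmem38a*, a counter-ion channel of the store (107 CPM, 10.2). *Ppp1r1a*, an inhibitor of protein phosphatase, was at 9.64 and *Hspb6*, a small heat shock protein, at 5.22.

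The genes whose levels over the 22 classes of cluster and library were most like the mean profile of the members, by Pearson's r of log2(CPM + 1) among 11303 genes, were *Tnni1*, *Nppa*, *Tnni3*, *Myl3*, *Cox6a2*, *Actc1*, *Trim55*, *Esrrg*, *Tnnt2* and *Myh7*, with r from 0.996 to 0.982. *Tnni1*, *Tnni3* and *Tnnt2* encode troponin subunits, *Myl3* and *Myh7* myosin chains and *Actc1* cardiac actin. *Nppa* encodes atrial natriuretic peptide, *Cox6a2* a subunit of cytochrome c oxidase and *Esrrg* a nuclear receptor. The mean profile was taken over the members with at least 200 UMIs, which left out *Sln*, *Jph2* and *Slc8a1*. Of the members that form it, *Atp2a2* reached 0.987, *Pln* 0.985, *Ryr2* 0.984, *Trdn* 0.958, *Casq2* 0.952, *Srl* 0.951 and *Hrc* 0.936. The classes share 2 libraries and the peak in cluster 3, so r describes mainly that peak. By Spearman's rho the 10 genes were *Rtn4rl1*, *Nppa*, *Cmya5*, *Hhatl*, *Usp28*, *Gmpr*, *Kcnk3*, *Cox8b*, *Trim55* and *Neurl2*, with no troponin, myosin or actin gene among them.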

How the data were processed

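Per library, the authors deposited raw UMI counts by gene and barcode, without normalization, and a list assigning each barcode to a cluster and a named type. The submitters' processing notes name Cell Ranger 2.2.0 and Seurat 2.3.4. The genome build is not given in the sources used here. Counts were summed per cluster and library and scaled to 1000000 UMIs of the class in Python 3.11.15 (numpy 2.4.6, scipy 1.17.1, pandas 2.3.3). Exact Poisson, exact conditional (ratios) and Clopper-Pearson (shares) intervals at 95% cover counting error only. Ratios needed at least 50 UMIs. The 2 CTRL and 8 LPS cells without a cluster were left out. No doublet caller was run, and an alternative dropped the 8% of cells richest in UMIs. The procedure was run on simulated counts drawn from the same counting model that the intervals assume. That run had no variation between libraries, so it checks the computation and cannot show how far the ratios reflect the conditions. The deposited files hold 1 library per condition, and the intervals of LPS to CTRL ratios compare libraries, not conditions.

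The members, gene lists and divisions of cells were chosen with earlier results of these data known. Named genes were the members, the other calcium handling genes past 2-fold in cluster 3 (none) or, up to 8, with the highest ratio of cluster 3 to cluster 0 in CTRL, and the 10 genes most like the members. The division by cardiomyocyte marker share, the second *Dbh* division and the alternatives for cluster 0 were added after the data were seen. Alternatives changed the denominator (with TMM from edgeR 4.0.16 in R 4.3.3, and the median of ratios), the cells, the depth and the minimums.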

Additional observations from a re-analysis of the deposited data

Results flagged for a closer look

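*Atp2a2* was singled out because its LPS to CTRL ratios went in opposite directions in some clusters, with counting intervals on opposite sides of 1. The difference between clusters was not tested, since each condition has 1 library. The ratio in the fibroblasts of cluster 0 was 1.36 times that in the endothelial cluster 4 and 1.47 times that in the macrophages of cluster 6. For the fibroblasts of cluster 1 it was 1.31 and 1.40 times, and for cluster 3 1.22 and 1.31 times. In cluster 3 the ratio itself was only 1.04, and it was below 1 with the cardiomyocyte markers as denominator. In cluster 6 the median of all genes was lower with LPS by a similar amount, -0.31 on the log2 scale against -0.34 for *Atp2a2*.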

How the results depend on the processing

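No paired analysis was possible because there is 1 library for saline and 1 for LPS. The log2 LPS to CTRL ratios of 7 members in cluster 3 were recomputed under 11 alternatives: 74 of 77 values stayed within the counting interval of the reported value. *Atp2a2* turned from 0.05 to -0.014 with the cardiomyocyte markers as denominator, whose sum was 15793 CPM in CTRL and 16563 CPM in LPS, and was 0.0045 among cells of any cluster with at least 1% of such UMIs; *Pln* went to -0.12 with the markers as denominator. The median of the members lay between -0.10 and 0.01. In cluster 0, *Atp2a2* stayed above 0 (0.21 to 0.49) and *Pln* below 0 (-0.48 to -0.20) under the 6 alternatives added after seeing the data. The share of member UMIs in cluster 3 was 69.7% in CTRL and 70.9% in LPS after thinning, which gives each cell equal weight, and 57.8% and 56.4% with cluster 9 added. Of all genes, 3.39% were past 2-fold in cluster 3, 5.56% with a minimum of 20 UMIs, 1.78% with 200, 12.5% with 1 UMI in each library and 9.78% past 1.5-fold; of the members, 1 of 9 (*Jph2*, 3 against 1 UMIs) was past 2-fold with 1 UMI in each library. Spearman's rho gave 2 of the same 10 most similar genes and a minimum of 1000 UMIs gave 8. Shares of cells all moved with the depth of thinning. The levels of *Sln*, *Jph2* and *Slc8a1* in cluster 3 rest on at most 12 UMIs a library, and why so few were counted was not tested.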
